A study of Mus musculus with 4 samples.

Results

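The barrier transporters described here are 7 genes of 23278 in the table, chosen by symbol: Abcb1a, Abcb1b, Abcg2, Abcc1, Abcc4, Slco1a4 and Slco2b1. The first 5 belong to the ATP-binding cassette (ABC) family. Slco1a4 and Slco2b1 do not, because they encode organic anion carriers of the solute carrier family that do not hydrolyse ATP, so the set as a whole is one of barrier drug transporters rather than of ABC pumps. All 7 had a usable status in every library and passed the minimum mean of 0.1 FPKM (fragments mapped to a gene, scaled to transcript length and library size), and 4 of them had a mean below 1 FPKM.

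The libraries hold RNA of the whole mouse retina at postnatal day 10, on a mixed background with at least C57BL6 and 129, in 4 genotypes with 1 library each. WT carried neither change. NdpKO lacked Ndp, which encodes Norrin, a ligand that cells secrete. The stabilized library (Ctnnb1flex3/+;Pdgfb-CreER) carried 1 allele of beta-catenin that recombination turns into a stable form, together with a tamoxifen-dependent recombinase under Pdgfb regulatory sequence, which is active in endothelial cells. The stabilized NdpKO (NdpKO;Ctnnb1flex3/+;Pdgfb-CreER) combined both and is titled a rescue. Every genotype, WT included, was given 20 ug of 4HT at postnatal day 3, and every library was made from 3 pooled batches of RNA, each from 4 to 8 retinas of 2 to 4 mice. The labels of WT and NdpKO name no recombinase, so its own effect cannot be told apart from that of stable beta-catenin. Pooling leaves no spread within a genotype, so no comparison below has a replicate check or a p-value.

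In the capillaries of the brain and the inner retina, endothelial cells are sealed by tight junctions, and transporters in their membranes decide which small molecules pass. ABC pumps use ATP to push drugs, toxins and conjugated metabolites out of the cell, mostly back into the blood. Slco carriers move organic anions, steroid conjugates and thyroid hormones across the same membranes. Norrin acts on endothelial cells through the receptor Frizzled-4 and beta-catenin, a pathway needed for the inner retinal vessels and their barrier.

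The deposited FPKM summed to between 405525 in the stabilized library and 427109 in stabilized NdpKO, and the sources used here give no read totals. With an intact gene, Ndp had 2.98 FPKM (WT) and 2.35 FPKM (stabilized library), and without it 0.873 FPKM (NdpKO) and 0.869 FPKM (stabilized NdpKO). The libraries with Ndp held Xist at 135 and 130 FPKM and Y-linked Ddx3y at 0.0896 and 0.173 FPKM, whereas those without Ndp held Xist at 1.25 and 1.28 FPKM and Ddx3y at 18.7 and 20.1 FPKM. The effect of Ndp and that of sex therefore cannot be told apart in any comparison across Ndp genotypes. Each value below is followed by its deposited interval, whose level the sources used here do not state and which covers the estimate within a library, not the variation between mice. The distance from the value to its upper bound ran from 14.3% of the value for Abcc1 to 57.2% for Abcb1a in NdpKO. A gene was called when its FPKM differed at least 1.5-fold, with no pseudocount, and its intervals in the pair of libraries were apart. The same rule was applied to 16394 genes to give the background share. Without genes of a mean below 1 FPKM that share fell in every comparison, so genes of low level were called more often.

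Mice have a pair of genes, Abcb1a and Abcb1b, for P-glycoprotein, the pump with the broadest range of drugs at the blood-brain barrier, where humans have a single gene. Abcb1a lies on chromosome 5 (8660077 to 8748575, plus strand, GENCODE M21 on mm10) and Abcb1b follows on the same strand (8798147 to 8866315) after a gap of 49.6 kb. Their longest open reading frames, of 3831 bases each, were identical at 88.1% of 3822 aligned bases. The sequences below are shown because they bear on how well the pair can be told apart by reads. The longest run without a difference had 338 bases, and 120 of them are printed once for both genes, at coding bases 1528 to 1647 of Abcb1a and 1537 to 1656 of Abcb1b. Capitals mark the codons of LSGGQ, the signature motif of ABC transporters:

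Abcb1a and Abcb1b: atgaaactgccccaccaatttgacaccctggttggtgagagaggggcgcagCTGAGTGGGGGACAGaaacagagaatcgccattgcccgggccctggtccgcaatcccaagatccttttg

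The 90-base stretch that differed most, without a gap, lay at coding bases 1883 to 1972 of Abcb1a and 1892 to 1981 of Abcb1b, with 29 differences, marked in capitals:

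Abcb1a: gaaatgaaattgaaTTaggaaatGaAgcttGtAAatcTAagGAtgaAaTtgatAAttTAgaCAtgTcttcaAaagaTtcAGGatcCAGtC

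Abcb1b: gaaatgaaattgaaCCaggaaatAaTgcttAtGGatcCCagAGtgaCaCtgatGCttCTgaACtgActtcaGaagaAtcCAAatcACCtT

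A read covering the marked differences of the second stretch names its gene, and a read wholly within the first, taken alone, does not. Of the 50-base windows of the longest coding transcript, 768 of 4948 in Abcb1a and 768 of 4257 in Abcb1b occurred in the other gene. The sources used here do not say how the authors' software divided reads between the genes, so the separate values of the pair are uncertain to that extent. Abcg2, Abcc1 and Abcc4 shared no such window with any other annotated gene. Slco1a4 shared 2.73% of its windows, mainly with Slco1a5, Slco1a1 and Slco1a6. Slco2b1 shared 8.31% with the antisense genes Gm15635 and Gm34280 on the opposite strand, and the sources used here do not say whether counting kept strand.

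Of the 7 genes Abcb1a had the largest ratio between its highest and lowest library, although in FPKM Abcg2, Abcc1 and Slco2b1 spanned more. It was at 0.287 FPKM in WT (0.182 to 0.391), 0.0665 FPKM in NdpKO (0.0284 to 0.105), 0.893 FPKM in the stabilized library (0.642 to 1.14) and 1.02 FPKM in stabilized NdpKO (0.739 to 1.30). NdpKO lay below every other library and both libraries with stabilized beta-catenin lay above WT, all with intervals apart, while those of the stabilized pair overlapped.

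Abcb1b was lower than Abcb1a in 3 of the 4 libraries, higher in NdpKO, and had smaller ratios between libraries. It was at 0.154 FPKM in WT (0.0861 to 0.221), 0.142 FPKM in NdpKO (0.0786 to 0.206), 0.240 FPKM in the stabilized library (0.146 to 0.334) and 0.332 FPKM in stabilized NdpKO (0.211 to 0.452). Its order was that of Abcb1a, but neighbours in the order overlapped throughout, and only stabilized NdpKO and NdpKO, at its ends, were apart.

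**Figure D1:**
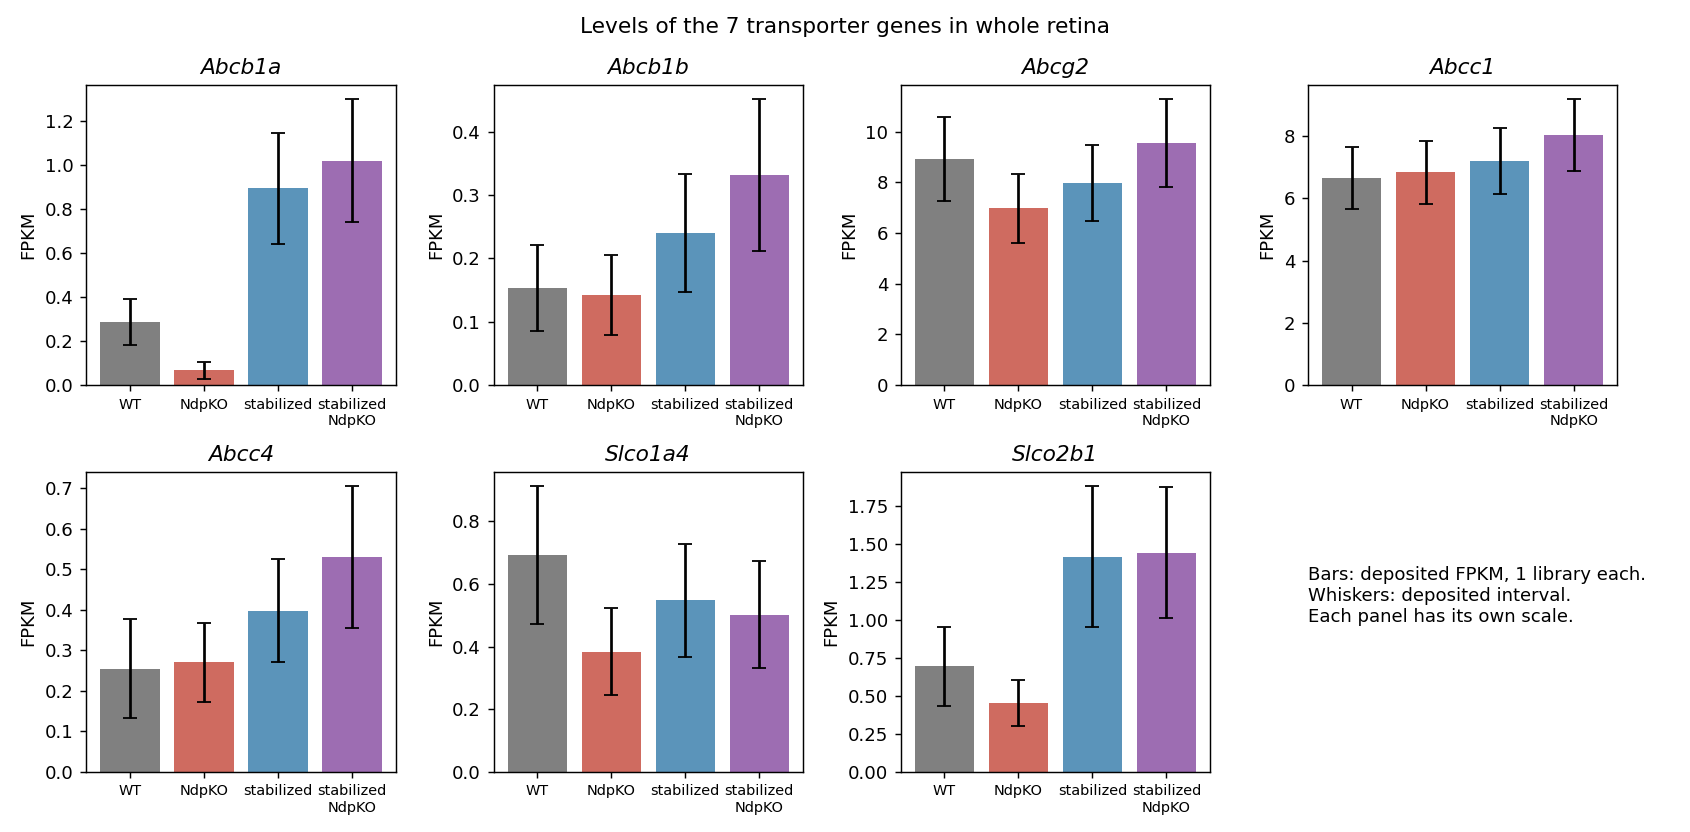
Deposited FPKM (bars) and deposited interval (whiskers) of the 7 genes in the 4 libraries, 1 panel per gene with its own scale. Abcb1a runs from 0.0665 FPKM in NdpKO to 1.02 FPKM in stabilized NdpKO, whereas Abcg2 and Abcc1 differ by 1.37-fold and 1.21-fold between their highest and lowest libraries.

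Abcg2, the breast cancer resistance protein, is a pump made of paired single subunits at the luminal face of barrier endothelium. It lies on chromosome 6 (58584523 to 58695676, plus strand) and was at 8.92 FPKM in WT (7.27 to 10.6), 6.98 FPKM in NdpKO (5.61 to 8.35), 8.00 FPKM in the stabilized library (6.49 to 9.50) and 9.56 FPKM in stabilized NdpKO (7.84 to 11.3). Its intervals overlapped in all libraries. NdpKO was lowest and stabilized NdpKO highest, 1.37 times apart.

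Abcc1 and Abcc4 encode multidrug resistance proteins that export conjugated organic anions, Abcc4 also cyclic nucleotides. Abcc1 (chromosome 16, 14361558 to 14475737, plus strand) was at 6.65 FPKM in WT (5.66 to 7.65), 6.84 FPKM in NdpKO (5.83 to 7.86), 7.21 FPKM in the stabilized library (6.15 to 8.27) and 8.04 FPKM in stabilized NdpKO (6.89 to 9.19). All intervals overlapped, and the value of Abcc1 had the smallest relative interval of the 7 genes. Abcc4 (chromosome 14, 118482692 to 118706219, minus strand) was at 0.254 FPKM in WT (0.132 to 0.376), 0.271 FPKM in NdpKO (0.173 to 0.368), 0.398 FPKM in the stabilized library (0.271 to 0.525) and 0.531 FPKM in stabilized NdpKO (0.356 to 0.706). Both stabilized values of Abcc4 were above both others, but every pair of intervals overlapped.

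Slco2b1, a carrier of steroid sulphates and other organic anions, lies on chromosome 7 (99657804 to 99711340, minus strand). It was at 0.693 FPKM in WT (0.431 to 0.955), 0.454 FPKM in NdpKO (0.303 to 0.605), 1.42 FPKM in the stabilized library (0.951 to 1.88) and 1.44 FPKM in stabilized NdpKO (1.01 to 1.87). Both stabilized libraries were about level and above the other pair. The interval of WT overlapped that of the stabilized library by a margin in the third decimal, and was apart from that of stabilized NdpKO.

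Slco1a4, the mouse organic anion carrier Oatp1a4 of brain capillaries, lies on chromosome 6 (141805440 to 141856199, minus strand). It was the only gene of the 7 with its highest value in WT, at 0.692 FPKM (0.472 to 0.913). It was at 0.383 FPKM in NdpKO (0.244 to 0.522), 0.547 FPKM in the stabilized library (0.366 to 0.728) and 0.501 FPKM in stabilized NdpKO (0.330 to 0.672). All intervals overlapped, so this order is within the precision of the libraries.

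FPKM are scaled to transcript length, which lets levels of different genes be set side by side. Abcg2 and Abcc1 were the most abundant of the 5 ABC pumps in every library, at 54.8% and 40.9% of their summed FPKM in WT. Abcb1a made up 1.76% of the summed FPKM of the 5 ABC genes in WT, 0.465% in NdpKO, 5.34% in the stabilized library and 5.23% in stabilized NdpKO. That sum was 16.3, 14.3, 16.7 and 19.5 FPKM in the same order. These shares describe RNA of the whole retina, and the part from endothelial cells was not measured.

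What loss of Norrin does while beta-catenin is unmodified is asked by NdpKO against WT. Abcb1a was 0.232 times as high in NdpKO, with ratios of 0.0726 to 0.573 from dividing the ends of the intervals. It was the 1 gene of the 7 called lower, against 0.39% of all 16394 genes, and ranked 28 of the 64 genes called lower by size of ratio. None of the 7 was called higher, against 0.311% of all genes. The median ratio of the 7 genes was 0.782, and that of all genes was 0.983. Slco1a4 had a ratio of 0.553 and Slco2b1 of 0.656, both past 1.5-fold but with overlapping intervals. Abcg2 had a ratio of 0.782, Abcb1b of 0.925, Abcc1 of 1.03 and Abcc4 of 1.06, each with overlapping intervals.

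The stabilized library against WT addresses active beta-catenin in endothelial cells with Ndp present. Abcb1a was 3.11 times as high as in WT (1.64 to 6.28 from interval ends) and ranked 55 of the 214 genes called higher. It was the 1 gene of the 7 called higher, against 1.31% of all genes, and none was called lower, against 0.695%. Slco2b1 had a ratio of 2.04 (0.997 to 4.36). It is not called with FPKM as deposited, but is called after rescaling to equal totals or to the median ratio. Abcc4 and Abcb1b both had a ratio of 1.56 with overlapping intervals. Abcc1 had a ratio of 1.08, Abcg2 of 0.896 and Slco1a4 of 0.791. The median of the 7 was 1.56 and that of all genes 0.989.

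What this activation does in retinas without Ndp is asked by stabilized NdpKO against NdpKO, which shares no library with the comparison just given. All 7 genes had a ratio above 1, and 3 were called higher, against 1.59% of all genes. Of the 261 genes called higher, 126 were among the 13150 genes with a mean of at least 1 FPKM. The share was thus larger below that mean, where Abcb1a and Abcb1b lie. None was called lower, against 0.348%. Abcb1a was 15.3 times as high (7.07 to 45.7 from interval ends) and ranked 22 of the 261 genes called higher. In NdpKO, the library this ratio is taken against, the interval of Abcb1a was the widest of the 4 relative to its value.

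Slco2b1 was 3.17 times as high (1.67 to 6.16) and Abcb1b 2.33 times (1.03 to 5.75) in that comparison. The lower bound of Abcb1b shows how narrowly its intervals were apart. Abcb1b differed by 0.189 FPKM and Abcb1a by 0.952 FPKM, and whether reads shared by the pair contributed to the difference in Abcb1b was not tested. Abcc4 had a ratio of 1.96 (0.966 to 4.07), Abcg2 of 1.37, Slco1a4 of 1.31 and Abcc1 of 1.18, each with overlapping intervals. The median of the 7 was 1.96 and that of all genes 1.03.

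**Figure D2:**
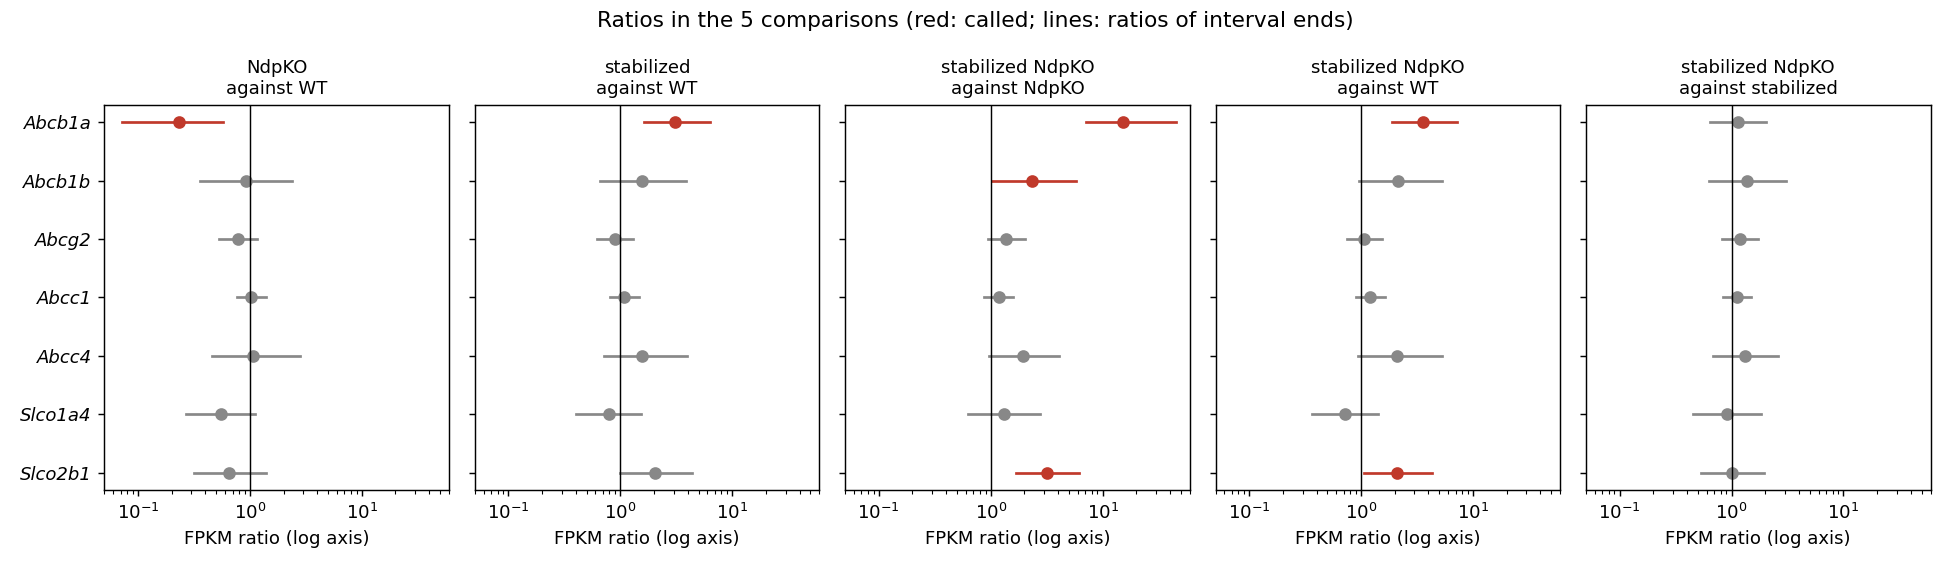
Ratio of deposited FPKM (points, log axis) of the 7 genes in the 5 comparisons, with lines from the lowest to the highest ratio that the ends of both intervals give. Red marks a called gene. Abcb1a is called in 4 of the 5 panels, lower in NdpKO and higher in each comparison of a stabilized library with an unstabilized one.

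Stabilized NdpKO against WT addresses how far activation without Ndp departs from the normal retina. Abcb1a was 3.55 times as high as in WT (1.89 to 7.12) and Slco2b1 2.08 times (1.06 to 4.34). These were the 2 genes called higher, against 1.43% of all genes, and none was called lower, against 0.348%. Abcb1b had a ratio of 2.16 and Abcc4 of 2.09, both with overlapping intervals. Abcg2 was at 1.07 and Abcc1 at 1.21 times WT, and Slco1a4 at 0.724 times WT, again with overlapping intervals.

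Stabilized NdpKO against the stabilized library addresses the loss of Ndp once beta-catenin is stable. None of the 7 was called in either direction, against 0.403% of all genes higher and 0.226% lower. Abcb1a had a ratio of 1.14 (0.646 to 2.02), and Slco2b1 of 1.02 (0.538 to 1.96). These ranges still allow a difference of about 2-fold, so they do not show equal levels. The ratios of the other 5 ran from 0.916 for Slco1a4 to 1.38 for Abcb1b.

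The ratio for stabilization was larger without Ndp than with it for each of the 7 genes. The median over all genes also leaned that way, at 1.03 and 0.989, and the share of all genes that did so was not counted. For Abcb1a the ratios were 15.3 and 3.11, a factor of 4.92 between them, and their ranges from interval ends (7.07 to 45.7 and 1.64 to 6.28) were apart. For the other 6 genes the factor ran from 1.08 for Abcc1 to 1.65 for Slco1a4, and the ranges overlapped. With 1 library per genotype, the difference between the ratios was not tested.

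Whole-retina RNA holds all cell types, and fewer endothelial cells and less RNA per endothelial cell cannot be told apart in it. All 18 endothelial markers listed were measured, none at 0 in any library, with a summed level of 67.2 FPKM in WT, 65.8 in NdpKO, 96.6 in the stabilized library and 99.1 in stabilized NdpKO. Kdr alone held 39.0, 39.9, 47.7 and 45.7 FPKM of these sums. In NdpKO against WT the median ratio of the 18 markers was 0.995, with Cdh5 called higher (1.80) and Sox17 called lower (0.315). The ratio of Abcb1a, 0.232, was below that of all 18, but its range from interval ends (0.0726 to 0.573) included the ratio of Sox17. The tight junction gene Cldn5, a check gene outside the 18, had a lower ratio of 0.0977.

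In the stabilized library against WT 11 of the 18 endothelial markers were called higher, with a median ratio of 2.10. Abcb1a exceeded 14 of them, Slco2b1 8 and Abcb1b and Abcc4 6 each. In stabilized NdpKO against NdpKO 14 were called higher, with a median of 2.44, and the highest was Vwf, the von Willebrand factor gene, at 7.51. Here Abcb1a exceeded all 18, Slco2b1 14, Abcb1b 8 and Abcc4 5. These counts compare ratios alone, and the range of Abcb1a from interval ends (7.07 to 45.7) included the ratio of Vwf. The ratios of Abcb1b, Abcc4 and Slco2b1 thus lay inside the range of the endothelial markers in both comparisons, and Abcb1a lay inside it with Ndp and above it without. Cldn5, outside the 18, had ratios of 2.81 with Ndp and 24.8 without, the second above that of Abcb1a. Against WT, stabilized NdpKO had 14 of the 18 endothelial markers called higher, at a median ratio of 2.33. There Abcb1a exceeded 16 of them, Abcb1b 8 and Abcc4 and Slco2b1 6 each.

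**Figure D3:**
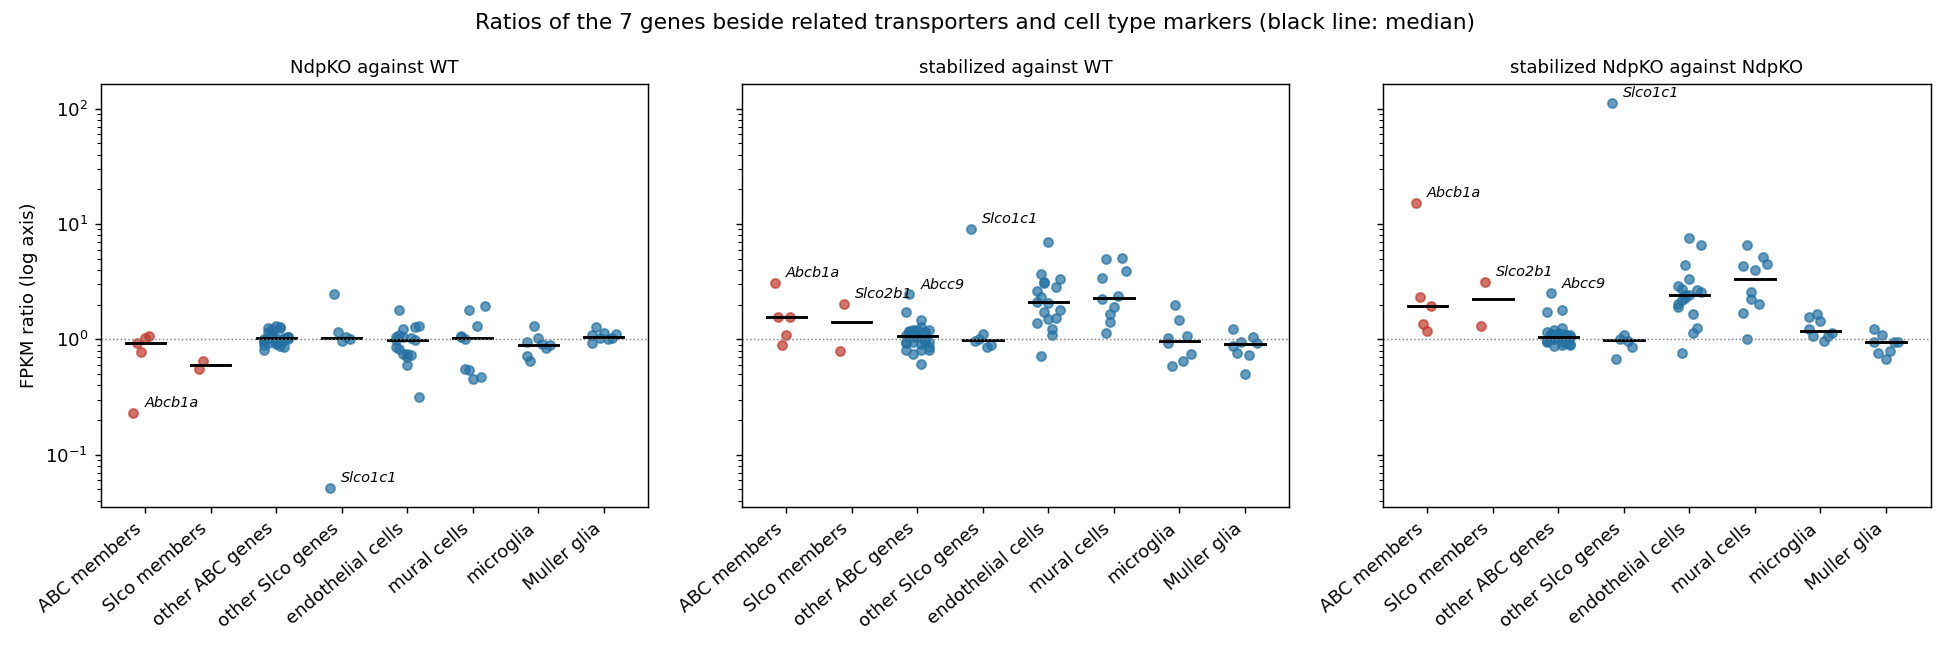
FPKM ratios (log axis) of the 7 genes in red, split by family, and of tested genes of related transporter families and cell type markers in blue, with the median of each set as a black line, in 3 comparisons. Abcb1a lies below all 18 endothelial markers in NdpKO against WT (0.232) and above all of them in stabilized NdpKO against NdpKO (15.3). Points show ratios alone, and the range of Abcb1a from interval ends includes the most extreme marker in both (Sox17 and Vwf).

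Markers of other cell types were measured in the same libraries. The 10 mural cell markers (pericytes and smooth muscle) summed to 23.1 FPKM in WT, 15.3 in NdpKO, 36.1 in the stabilized library and 34.1 in stabilized NdpKO. Most of the sum was Rgs5, which was called lower in NdpKO (9.63 FPKM) against WT (17.6 FPKM), while the median ratio of the 10 in that comparison was 1.02. Of these markers, 6 were called higher in the stabilized library against WT, 9 in stabilized NdpKO against NdpKO and 6 in stabilized NdpKO against WT. Myh11 (ratio 2.82) and Acta2 (2.21) were called higher in stabilized NdpKO against the stabilized library. The 5 tested erythroid genes summed to 69.8, 75.5, 164 and 176 FPKM in the same order of libraries, although near-identical globin copies make single values uncertain. The 6 astrocyte markers summed to 18.3 FPKM in WT, 22.3 in NdpKO, 24.1 in the stabilized library and 30.2 in stabilized NdpKO. Pax2, Gfap and Pdgfra were called higher in each stabilized library against WT, Pdgfra also in stabilized NdpKO against NdpKO, and Gfap in NdpKO against WT. The part of these cell types in the results for Abcb1a, Abcb1b, Abcc4 and Slco2b1 was not tested. Microglia also express Slco2b1. Their 8 markers summed to 30.0 FPKM in WT, 25.9 in NdpKO, 28.0 in the stabilized library and 30.7 in stabilized NdpKO, with none called in any of the 5 comparisons. The 8 Muller glia markers summed to 639, 701, 583 and 661 FPKM. Of these, Aqp4, which astrocytes also express, was called lower in the stabilized library against WT. The 10 genes listed for pigment epithelium and ciliary body, an adjoining tissue, summed to 82.7, 92.8, 94.3 and 80.3 FPKM. Trpm1 held 30.9, 34.5, 27.3 and 32.8 FPKM of these sums, and the part from the retina itself was not measured. Of the 10, 3 (Pmel, Rpe65 and Rgr) were called higher in the stabilized library against WT. Rpe65 was called lower in stabilized NdpKO against the stabilized library, where the median ratio of the 10 was 0.749.

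The wider ABC family was listed by subfamily, and 34 of 48 further members passed the minimum mean. In NdpKO against WT none of the 34 was called, and their median ratio was 1.02. Abcb1a lay below all of them, and so did Abcg2, Slco1a4 and Slco2b1, which were not called. In the stabilized library against WT and in stabilized NdpKO against NdpKO the same 2 genes were called higher, and their medians were 1.07 and 1.06. Abcc9, the regulatory subunit of a potassium channel of pericytes and smooth muscle, was at 0.691 FPKM in WT, 0.643 in NdpKO, 1.71 in the stabilized library and 1.63 in stabilized NdpKO. Abca1, the exporter of cholesterol to apolipoprotein, was at 9.19, 7.42, 16.0 and 12.9 FPKM in the same order. Abcb1a had a higher ratio than all 34 in both comparisons. Slco2b1 exceeded 33 of them in the first and all 34 in the second, and Abcb1b and Abcc4 each exceeded 32 and then 33. In the first, the range of Abcb1a from interval ends (1.64 to 6.28) included the ratios of Abcc9 (2.47) and Abca1 (1.74). Abcc9 was also the 1 further member called in stabilized NdpKO against WT, and Abcc3, an organic anion exporter, the 1 called in stabilized NdpKO against the stabilized library, at 0.337 against 0.132 FPKM. None was called lower in any comparison.

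Paralogues in the same chromosome region had other values than the member. Abcb4, the phospholipid exporter of bile, lies 27.4 kb beyond Abcb1b and was at 0.739 FPKM in WT (0.515 to 0.963), 0.728 in NdpKO (0.507 to 0.949), 0.851 in the stabilized library (0.600 to 1.10) and 0.679 in stabilized NdpKO (0.469 to 0.888), with all intervals overlapping. Abcb1a, Abcb1b and Abcb4 thus gave ratios of 15.3, 2.33 and 0.932 in stabilized NdpKO against NdpKO. On chromosome 6 the order was reversed, with Slco1c1 differing more than the member Slco1a4. Slco1c1 is not its nearest paralogue. Slco1b2 lies between them at 0 FPKM in every library, and Slco1a1 lies nearer at no more than 0.000438 FPKM. Slco1c1, the thyroxine carrier of brain capillaries, lies 235 kb from Slco1a4 and was at 0.396 FPKM in WT (0.242 to 0.550), 0.0206 in NdpKO (0 to 0.0602), 3.63 in the stabilized library (2.83 to 4.42) and 2.32 in stabilized NdpKO (1.72 to 2.91). Slco1c1 was the only gene called among the 6 tested of 13 further Slco genes, in every comparison but stabilized NdpKO against the stabilized library, where none was.

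**Figure D4:**
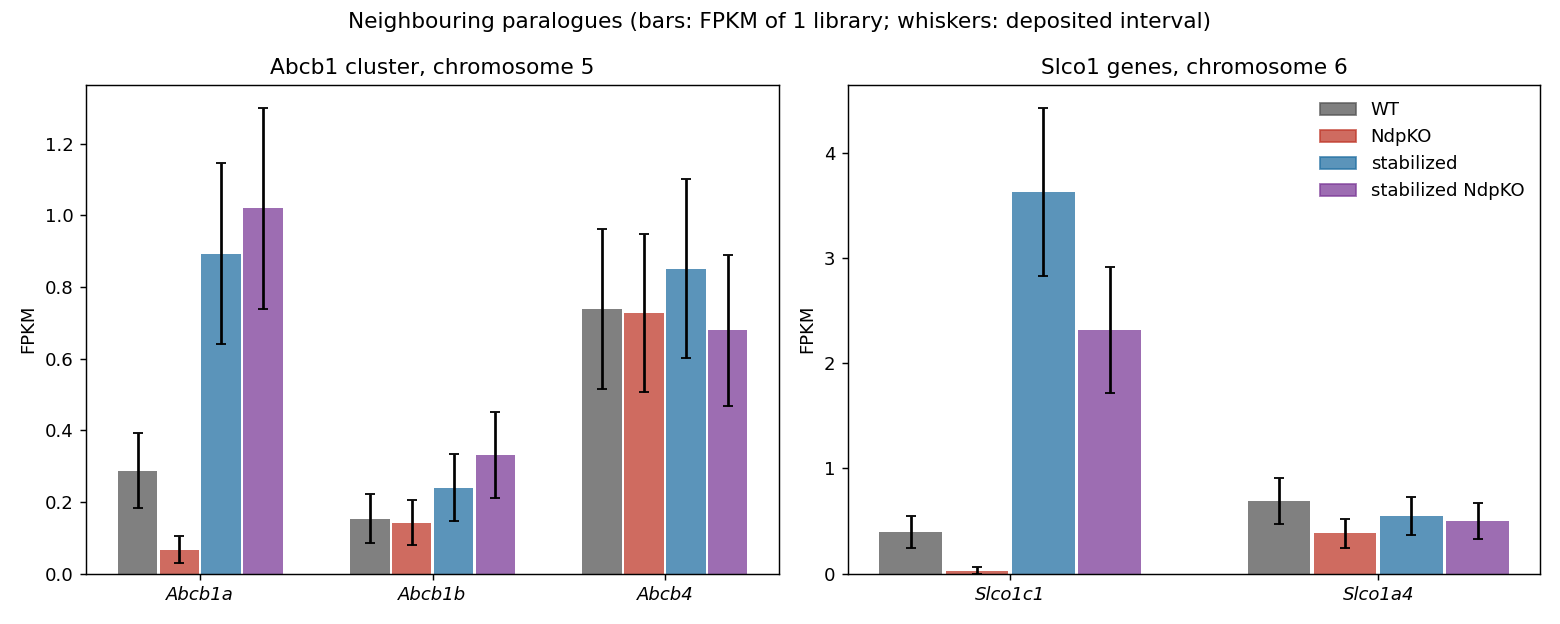
FPKM (bars, 1 library each, with deposited intervals) of the Abcb1 genes and Abcb4 on chromosome 5, left, and of Slco1c1 and Slco1a4 on chromosome 6, right. Abcb4 stays between 0.679 and 0.851 FPKM, and Slco1a4 between 0.383 and 0.692 FPKM. Slco1b2, not shown, lies between Slco1c1 and Slco1a4.

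Genes with the pattern nearest to a member were sought by the distance between log2 FPKM over the 4 libraries, each gene centred on its own mean, for the 4 members with at least a 2-fold range. Over 14086 genes the nearest to Abcb1a were Foxq1 (distance 0.56 log2 units), Nostrin (0.58), Foxf2 (0.64), Car4 (0.70) and Mfsd2a (0.79). Foxq1 and Foxf2 encode forkhead transcription factors, and Mfsd2a a lysophospholipid carrier of barrier endothelium. Foxq1 was at 0.366 FPKM in WT, 0.0662 in NdpKO, 1.52 in the stabilized library and 1.22 in stabilized NdpKO.

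The genes nearest to Slco2b1 were the TGF-beta receptor Tgfbr2 (0.082), Lgals9 (0.12), the apelin receptor Aplnr (0.13), the angiopoietin receptor Tek (0.16) and Dab2 (0.16). Those nearest to Abcb1b were Igfbp7 (0.13), Icam2, Tnfrsf19, Top2a and Smtn (0.19 to 0.20). Those nearest to Abcc4 were Trim17 (0.053), Tgm2, Pcolce, Fabp4 and Apobec1 (0.083 to 0.14). Distances were larger for Abcb1a, which had the widest range of the 4 members.

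Promoters were looked up in RefSeq on GRCm38.p6, the same assembly as mm10, as the 250 bases before a start. A start within 100 bases of the 5' end of the deposited locus was found for 5 of the 7 genes, Abcb1b, Abcg2, Abcc4, Slco1a4 and Slco2b1. None of these 5 windows held a TCF/LEF motif, spelled CTTTG and then 2 letters that are each A or T, on either strand, which 14.8% of 32851 such windows held. Starts farther from the deposited 5' end were not counted there. Among them, the only RefSeq window of Abcb1a, at a start 93.0 kb from the locus in the table, held 2 matches, and another start of Abcc4 held 1. Abcc1 had no entry. A match, or the lack of one, describes the letters of a window and no more.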

How the data were processed

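The values are FPKM as deposited by the authors in 1 table, which holds for each gene and library the FPKM, the bounds of its interval and a status. TopHat, Cuffdiff and mm10 are named in the submitters' processing notes. The sources used here do not give versions, the annotation, the interval's level, read length or read totals. Columns were assigned by the number in their name, which is that of a sample's description, and every column of values was used. The members and lists were chosen with earlier results of these data known.

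Ratios of FPKM were taken with no pseudocount. The background held 16394 genes with status OK in each library and a mean of at least 0.1 FPKM, and 145 genes had another status. Text genes were the 7 members, up to 3 called genes per transporter list and comparison, the lists' extremes, 5 genes of nearest pattern per member (mean of at least 0.5 FPKM) and check genes. Abcb4 was named after its values were seen. Windows of 50 bases and coding sequences came from GENCODE M21 transcripts, and promoters from RefSeq. The call was tested on simulated data. Alternatives were pseudocounts of 0.1 and 0.5, other thresholds and filters, and rescaling. Python 3.11.15, numpy 2.4.6, pandas 2.3.3 and matplotlib 3.10.9 were used.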

Additional observations from a re-analysis of the deposited data

Results flagged for a closer look

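For 5 of the 7 genes a contrast had opposite directions on its 2 backgrounds. The share of all genes with such a pattern was not counted, and a ratio just past 1 is enough for it. Each difference is given as the log2 of the stabilization ratio without Ndp over that with Ndp, and none was tested, since each genotype has 1 library. Abcb1a had a difference of 2.30. Its ratio for loss of Ndp was 0.232 with unmodified and 1.14 with stabilized beta-catenin. Slco2b1 had a difference of 0.63, with ratios for loss of Ndp of 0.656 and 1.02. The second was below 1 after rescaling to equal totals or to the median ratio (log2 ratios of -0.05 and -0.01), which leaves 4 genes with opposite directions. The difference was 0.58 for Abcb1b, with ratios of 0.925 and 1.38. Abcg2 had a difference of 0.61. It was lower in the stabilized library than in WT (ratio 0.896) and higher in stabilized NdpKO than in NdpKO (1.37). Slco1a4 had a difference of 0.73, with stabilization ratios of 0.791 and 1.31. The intervals overlapped in all of these ratios but that of Abcb1a for loss of Ndp with unmodified beta-catenin. Directions with overlapping intervals are within the precision of the libraries.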

How the results depend on the processing

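With a pseudocount of 0.5 FPKM the number of members called in NdpKO against WT went from 1 to 0, because Abcb1a in WT is itself below that pseudocount. Abcb1b also lost its only call with it (log2 ratio 0.37 in stabilized NdpKO against NdpKO), which took that count from 3 to 2. The 1.5-fold rule without the intervals called 3 members in NdpKO against WT, 4 in the stabilized library against WT and 4 in stabilized NdpKO against WT, where the main rule called 1, 1 and 2. After rescaling to equal totals or to the median ratio 2 members were called in the stabilized library against WT, as Slco2b1 joined Abcb1a. The other 29 counts of members called were within 1.5 times the main count, and none of the called ratios changed direction. Of the uncalled ratios, that of Slco2b1 in stabilized NdpKO against the stabilized library passed 1 under both rescalings (log2 ratios of 0.03 as deposited, -0.05 and -0.01). With a minimum mean of 1 FPKM the background share called in stabilized NdpKO against NdpKO was 1.22% in place of 1.94%, and against the stabilized library 0.365% in place of 0.628%. For Abcb1a the log2 difference between the stabilization ratios was 2.30 as deposited, 1.39 with a pseudocount of 0.1 and 0.60 with 0.5, and pseudocounts understate ratios of values this low. No paired analysis was possible because each genotype has 1 library, and for the same reason no library could be left out. Values below 1 FPKM have wide intervals, so for Abcb1b, Abcc4, Slco1a4 and Slco2b1 differences under about 2-fold were mostly not detectable.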

Other observations

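Other carriers that handle drugs were listed beside the 7 genes, and 12 of 16 were tested. In NdpKO against WT none was called. In the stabilized library against WT, Slc22a8, the organic anion transporter Oat3, was called higher at 1.34 FPKM (0.895 to 1.78) against 0.443 FPKM (0.282 to 0.604), and so was Slc7a5, the large neutral amino acid carrier, at 33.1 FPKM against 21.5 FPKM. In stabilized NdpKO against NdpKO, Slc7a5 was called higher at 31.4 FPKM against 20.7 FPKM and the nucleoside carrier Slc29a1 lower at 6.85 FPKM (4.87 to 8.82) against 11.7 FPKM (8.92 to 14.5), while Slc22a8 was at 0.894 FPKM (0.557 to 1.23) against 0.419 FPKM (0.265 to 0.573), with overlapping intervals. 

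Of 16 genes known to regulate efflux pumps or to act with beta-catenin, 14 were tested and none was called in NdpKO against WT. Tcf7, a partner of beta-catenin on DNA, was called higher in the stabilized library against WT (1.54 against 0.707 FPKM) and in stabilized NdpKO against NdpKO (1.28 against 0.591 FPKM). Ppara, a nuclear receptor of fatty acids, was called higher in the same comparisons (2.81 against 1.65 FPKM and 2.94 against 1.95 FPKM) and in stabilized NdpKO against WT. Lef1 was called higher in stabilized NdpKO against NdpKO (0.753 against 0.294 FPKM). Vdr and Nr1i2, the pregnane X receptor that induces Abcb1 genes in liver, were below the minimum mean, Nr1i2 with a highest value of 0.0144 FPKM.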
